A study of Mus musculus with 4 samples.

Results

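The 10 genes described here were *Vegfa*, *Vegfb*, *Angpt1*, *Angpt2*, *Angpt4*, *Angptl4*, *Nrp1*, *Hif1a*, *Epas1* and *Egln3*, out of 24322 gene symbols measured by RNA-seq in sorted mouse Müller glial cells. They were selected by name as vascular growth factors, a co-receptor and oxygen-response genes, on the FPKM of control against *Rax* iCKO in these same libraries, so their differences between genotypes are a description, and no p-value is given for any of them. FPKM scales the sequenced fragments of a gene to the length of its exons and to the mapped fragments of the library, so levels can be compared between genes per length. Of the 10 genes, 5 had a mean of at least 1 FPKM over the 4 libraries and 5 lay under it, and 9 were above 0 in every library.

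Each library came from the mTFP-positive retinal cells of 1 mouse, labelled 129S6, that carried *Rlbp1-CreERT2* and *R26-CAG-LoxP-mTFP1*. The 2 control mice, 7984 and 3911, had the genotype *Rax*flox/WT, with 1 floxed and 1 wild-type allele, and the 2 *Rax* iCKO mice, 7983 and 3914, were *Rax*flox/flox. Tamoxifen was given to all 4 at P4 and retinas were taken at P14, so tamoxifen, Cre, the reporter and at least 1 floxed *Rax* allele were common to both groups. Cre was driven by a promoter fragment of *Rlbp1*, a gene of Müller glia and pigment epithelium, and the cells were recognised by mTFP fluorescence alone.

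Müller glia span the retina, wrap its blood vessels and are a known source of vascular growth factors. The transcription factors HIF-1α (*Hif1a*) and HIF-2α (*Epas1*) are marked for destruction by prolyl hydroxylases such as EGLN3 while oxygen is plentiful, and when oxygen falls they are stabilised and switch on genes such as *Vegfa*. VEGF-A acts on the receptors KDR and FLT1 with neuropilin-1 (*Nrp1*) as co-receptor, whereas the angiopoietins act on TIE2 (*Tek*), an endothelial receptor, and ANGPTL4 inhibits lipoprotein lipase.

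The targeted gene *Rax* was at 189.1 and 181.4 FPKM in controls 7984 and 3911 and at 111.4 and 98.4 FPKM in *Rax* iCKO animals 7983 and 3914. The depth, estimated from the steps in which low FPKM values move, was between 9270000 and 12720000 mapped reads per library. All 12 Müller glial markers examined were above 1 FPKM in every library, with summed levels of 11012 and 14178 FPKM in controls and 9683 and 9879 FPKM in *Rax* iCKO. Bipolar cell markers were also abundant, with sums of 3846 and 9036 FPKM in controls and 5219 and 7587 FPKM in *Rax* iCKO, and rod markers summed to 1365 and 1342 FPKM in controls and 912 and 792 FPKM in *Rax* iCKO. The labelled cell type was therefore present in the libraries together with RNA of neurons. The labels give no sex, and *Xist*, the RNA that coats the silenced X, had 24.5 and 21.2 FPKM in the controls but 0.012 and 0.0061 FPKM in *Rax* iCKO, so whatever sets *Xist* apart and the genotype cannot be told apart in these 4 mice. The Y-linked gene *Ddx3y* was at 12.4 FPKM in mouse 7983 and listed at 0 in the other 3 mice, 3914 included. In bulk RNA, fewer cells of a type and less RNA per cell cannot be told apart either.

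The sequences before the start of *Vegfa*, *Hif1a* and *Egln3* are shown because each holds a short motif that bears on this group of genes. ACGTG is the core of the element bound by HIF, and TAATT is a core recognised by many homeodomain proteins, the class to which Rax belongs. Promoter windows of 250 bases upstream of the start were taken from RefSeq on GRCm38.p6, and 6 of the 10 genes had a window (*Angpt4*, *Egln3*, *Hif1a*, *Nrp1*, *Vegfa* and *Vegfb*). Both strands were searched, and capitals mark the matches. The windows lie at chr17:46032378-46032627 (minus strand) for *Vegfa*, chr12:73907617-73907866 (plus strand) for *Hif1a* and chr12:54203875-54204124 (minus strand) for *Egln3*.
Vegfa: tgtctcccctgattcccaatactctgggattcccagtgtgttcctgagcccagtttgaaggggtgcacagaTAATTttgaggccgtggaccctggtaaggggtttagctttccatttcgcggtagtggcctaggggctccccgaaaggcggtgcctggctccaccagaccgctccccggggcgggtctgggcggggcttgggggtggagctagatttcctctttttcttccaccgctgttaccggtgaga
Hif1a: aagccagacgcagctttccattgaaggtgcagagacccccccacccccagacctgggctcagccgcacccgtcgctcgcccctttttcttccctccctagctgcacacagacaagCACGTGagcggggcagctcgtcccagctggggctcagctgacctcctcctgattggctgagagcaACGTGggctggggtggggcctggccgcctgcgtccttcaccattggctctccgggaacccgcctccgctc
Egln3: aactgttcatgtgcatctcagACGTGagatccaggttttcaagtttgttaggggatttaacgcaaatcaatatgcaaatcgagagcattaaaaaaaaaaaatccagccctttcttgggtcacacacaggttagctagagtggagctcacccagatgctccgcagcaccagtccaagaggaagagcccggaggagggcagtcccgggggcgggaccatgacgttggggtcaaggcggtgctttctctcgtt

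The *Egln3* window held ACGTG once, starting at position -229 from the transcription start. The *Hif1a* window held 3 matches, of which those at -135 (as CACGT, the reverse complement) and -134 overlap as CACGTG, and the other is at -70. This window lies inside the span that GENCODE gives *Hif1a*, whose longest annotated extent starts farther upstream. The *Vegfa* window shown held TAATT at -179 and no ACGTG, which says only that these letters are not in this window. RefSeq gives *Vegfa* another window, chr17:46025164-46025413, which overlaps an exon of the gene and held ACGTG once, at -211 as CACGT. Over all 32851 RefSeq windows of this length, 16.6% held ACGTG on either strand and 25.03% held TAATT, so each motif is common and a match is a description of the letters, not of binding. *Angpt1*, *Angpt2*, *Angptl4* and *Epas1* had no entry, and the windows of *Angpt4*, *Nrp1* and *Vegfb* held neither motif.

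The HIF and VEGF genes and *Nrp1* were the most abundant of the 10, and the angiopoietins were among the lowest. *Hif1a* (chr12:73901375-73947530, plus strand, GRCm38) had a mean of 147.7 FPKM and stood at percentile 96.1 of the 17865 genes with a mean above 0, followed by *Vegfa* with 100.8, *Vegfb* with 28.9, *Epas1* with 15.2 and *Nrp1* with 10.6 FPKM. The other 5 genes had means between 0.205 FPKM for *Angpt2* and 0.822 FPKM for *Angptl4*, with *Angpt1* at 0.357, *Egln3* at 0.303 and *Angpt4* at 0.230 FPKM. The ranges over the 4 libraries of *Hif1a* and *Vegfa* overlapped, as did those of *Epas1* and *Nrp1* and of neighbouring genes under 1 FPKM. *Vegfa* lay above *Vegfb*, *Vegfb* above *Epas1*, and *Nrp1* above *Angptl4* in every library without overlap.

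**Figure D1:**
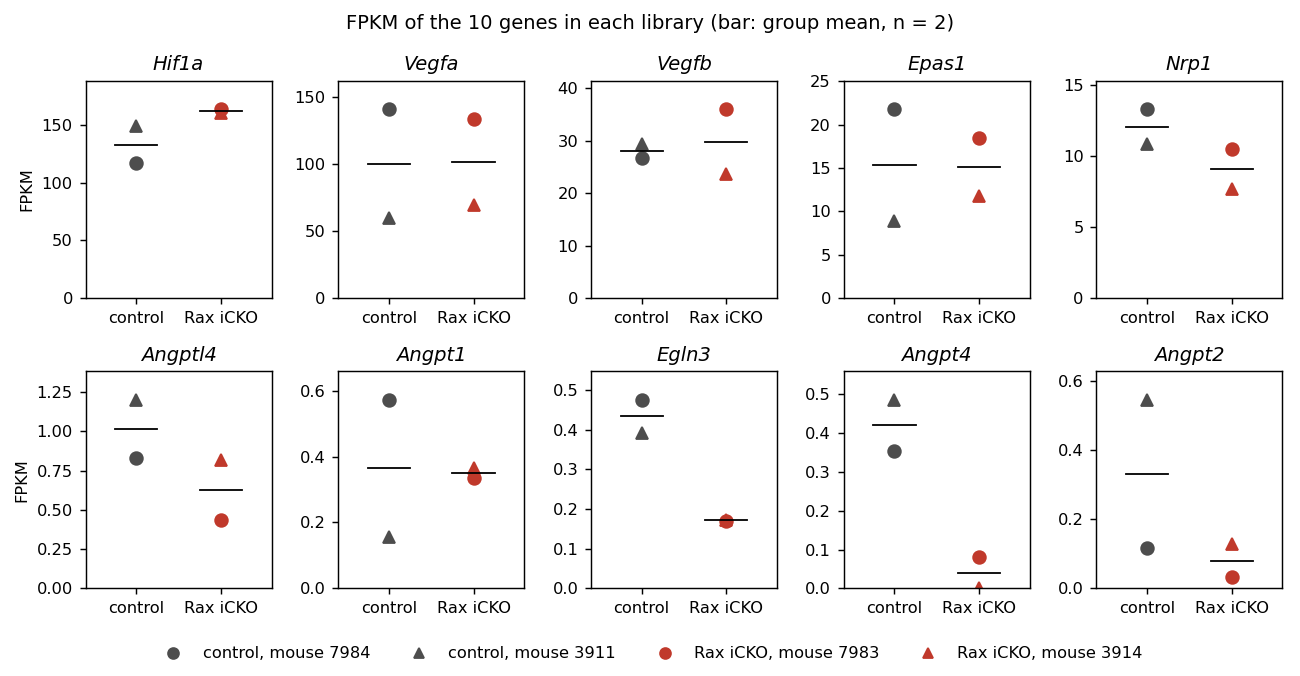
FPKM of each of the 10 genes (vertical axes, linear and starting at 0, each with its own range) in the 2 control and 2 *Rax* iCKO libraries, with bars for the group means (n = 2). Circles mark mice 7983 and 7984 and triangles mice 3911 and 3914: for *Vegfa* the circles lie at 133.5 and 140.7 FPKM and the triangles at 59.6 and 69.4 FPKM, whatever the genotype, while *Angpt4* and *Egln3* lie lower in both *Rax* iCKO libraries at levels under 0.5 FPKM.

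*Vegfa*, the main growth factor for retinal vessels, did not separate the genotypes. It was at 140.7 and 59.6 FPKM in controls 7984 and 3911 and at 133.5 and 69.4 FPKM in *Rax* iCKO animals 7983 and 3914. The levels of the 2 groups overlapped, with means of 100.2 ± 57.3 FPKM (SD, n = 2) in control and 101.5 ± 45.3 FPKM (SD, n = 2) in *Rax* iCKO. The log2 fold change of *Rax* iCKO against control, computed on log2(FPKM + 1) as all log2 values here, was 0.07 (standard error 0.48). It was -0.40 without mouse 7983 and -0.54 without mouse 3911, but 0.68 without mouse 7984 and 0.54 without mouse 3914, so its sign depended on which mouse was left out. *Vegfa* lies on the minus strand at chr17:46016993-46032369, with 13 annotated transcripts that the gene-level FPKM do not tell apart. From its longest transcript of 3451 bases, the FPKM stood for about 1797 to 5817 reads per library.

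The *Vegfa* levels lay apart by mouse number instead. Mice 7983 and 7984, and mice 3911 and 3914, are close in number and each pair holds 1 mouse of each genotype. The labels do not say what the numbers stand for. Both *Vegfa* values of mice 7983 and 7984 were above both of mice 3911 and 3914, with a difference of 1.08 on the log2 scale (standard error 0.14 in a fit with genotype and number pair), against differences between genotypes within the pairs of -0.08 and 0.22. Of the 5 genes tested, *Vegfa* alone had a difference of at least 1 in this direction, which 2.98% of the 12363 genes with a mean of at least 1 FPKM also had. With 2 mice on each side, the smallest p of a two-sided exact permutation test is too large for any such split to pass a threshold of 0.05, and none was run.

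*Epas1*, the gene of HIF-2α, followed the same order of libraries. Its level was 21.8 and 8.82 FPKM in controls 7984 and 3911 and 18.5 and 11.8 FPKM in *Rax* iCKO animals 7983 and 3914. Both groups thus held 1 high and 1 low library, and the group means of 15.3 ± 9.15 and 15.1 ± 4.74 FPKM (SD, n = 2 each) were close to each other. The genotype log2 fold change was 0.08 (standard error 0.44), and it moved between -0.53 without mouse 3911 and 0.69 without mouse 7984, while mice 7983 and 7984 were higher than 3911 and 3914 by 0.91 on the log2 scale (standard error 0.19). The gene lies on the plus strand at chr17:86753700-86833410, and its levels stood for about 435 to 1471 reads.

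In all, 2 of the 10 genes, *Vegfa* and *Epas1*, had both libraries of mice 7983 and 7984 above both of mice 3911 and 3914, a pattern found in 23.3% of the 17865 genes. *Angpt2* alone had the opposite pattern, found in 23.6% of genes, at levels of at most 0.545 FPKM. Bipolar marker sums were lower in mice 7983 and 7984 (5219 and 3846 FPKM) than in mice 3911 and 3914 (9036 and 7587 FPKM), whereas Müller glial sums overlapped between the pairs. Of the 12 Müller glial markers, however, 7 had the pattern of *Vegfa* and 0 the opposite one. Pericyte and smooth muscle markers followed *Vegfa* both in their sums (26.8 and 29.3 FPKM in mice 7983 and 7984, 12.8 and 15.1 FPKM in mice 3911 and 3914) and in 5 of 10 genes, with 0 in the opposite order. Amacrine and ganglion cell markers did so in their sums (76.6 and 85.3 FPKM, against 62.0 and 53.4 FPKM) and in 4 of 11 genes, also with 0 opposite. Microglial sums overlapped (83.3 and 47.5 FPKM, against 48.4 and 12.1 FPKM), with 6 of 10 genes in the order of *Vegfa* and 0 opposite. Of 8 bipolar markers, 0 had the order of *Vegfa* and 4 the opposite one, and of 5 astrocyte markers 0 and 2. Of 15 endothelial markers, 3 had the order of *Vegfa* and 4 the opposite one. Those other than *Kdr* and *Flt1* summed to 19.4 and 20.1 FPKM in mice 7983 and 7984, against 34.6 and 26.3 FPKM in mice 3911 and 3914. The part of transcripts of these cell types in the *Vegfa* and *Epas1* difference was not tested.

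**Figure D2:**
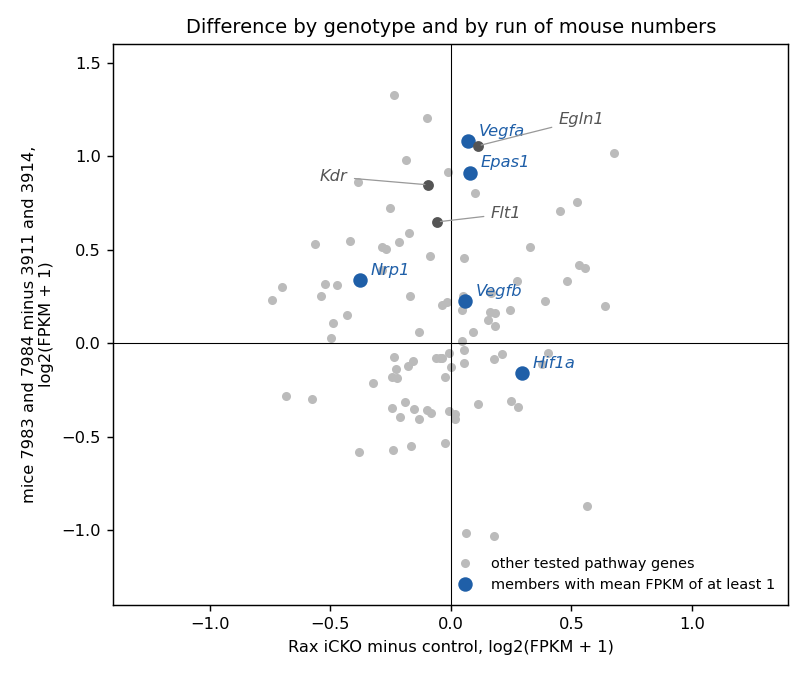
Difference in log2(FPKM + 1) between *Rax* iCKO and control (horizontal axis) and between mice 7983 and 7984 and mice 3911 and 3914 (vertical axis) for the 5 tested members (blue), for *Kdr*, *Flt1* and *Egln1* (dark grey) and for the other tested pathway genes (light grey). *Vegfa* and *Epas1* lie near 0 on the horizontal axis, at 0.07 and 0.08, and at 1.08 and 0.91 on the vertical axis, while *Nrp1* (-0.38) and *Hif1a* (0.29) lie farther out on the horizontal axis.

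The difference between the number pairs was also related to transcript length. Over the 11909 tested genes with an annotated length, Spearman's rho between the longest transcript and the pair difference was 0.385, and that between the length and the genotype difference was 0.325. These values are across genes, which share their libraries and are not independent replicates. The median pair difference went from -0.25 among the shortest genes (class 1 of 4 classes of equal size) to 0.21 among the longest (class 4). *Vegfa*, with a longest transcript of 3451 bases, fell in class 3, where the median was 0.07 and 2.75% of genes had a pair difference at least as high. *Epas1*, with 5516 bases, fell in class 4, where 6.38% of genes reached its value. The part of length in either difference was not tested beyond these classes.

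**Figure D3:**
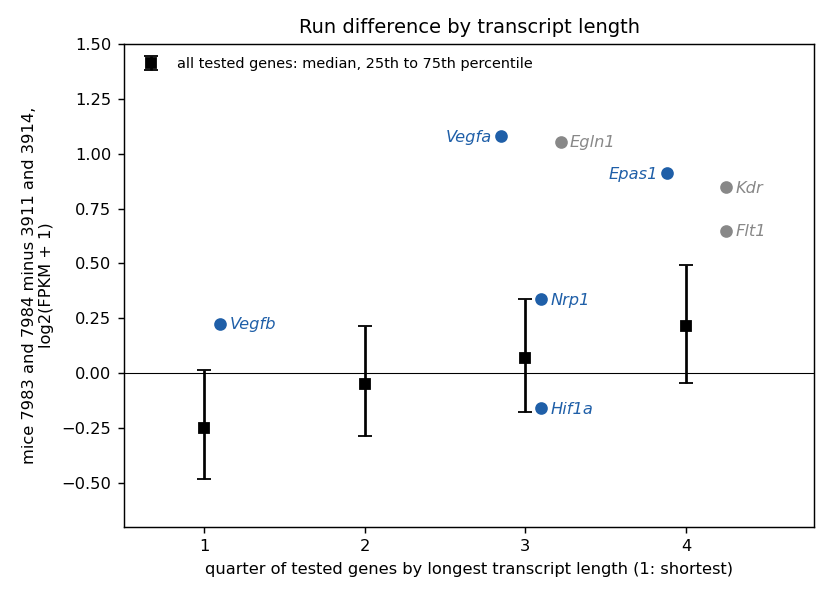
Difference in log2(FPKM + 1) between mice 7983 and 7984 and mice 3911 and 3914 for all tested genes in 4 classes of longest transcript length (squares: median, bars: 25th to 75th percentile) and for single genes (circles: members in blue, others in grey, set beside their class). The medians go from -0.25 to 0.21 with length, and *Vegfa* at 1.08 and *Epas1* at 0.91 lie above the bars of their classes.

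*Hif1a* alone of the 10 genes had both *Rax* iCKO libraries above both controls, a pattern that 13.7% of the 17865 genes had. It was at 116.9 and 149.5 FPKM in controls 7984 and 3911 and at 164.0 and 160.5 FPKM in *Rax* iCKO animals 7983 and 3914. The mean was 133.2 ± 23.0 FPKM in control and 162.2 ± 2.48 FPKM in *Rax* iCKO (SD, n = 2 each), a ratio of 1.22 and a log2 fold change of 0.29 (standard error 0.23). The 2 controls differed more from each other than the nearer control, mouse 3911, differed from either *Rax* iCKO mouse, and without mouse 7984 the log2 fold change was 0.12. It was 0.43 after rescaling to TPM and 0.46 after quantile normalization, above 0 in each. The difference within the number pairs was 0.48 (7983 against 7984) and 0.10 (3914 against 3911).

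*Hif1a* and *Epas1* encode related subunits, and their balance differed between libraries. The ratio of *Hif1a* to *Epas1* FPKM was 8.87 in mouse 7983, 5.38 in mouse 7984, 17.0 in mouse 3911 and 13.6 in mouse 3914. The mRNA of *Hif1a* was therefore the higher of the pair in all 4 libraries, and the ratio varied with the mouse number and not with genotype. HIF activity is set mainly by the stability of the protein, which these data do not measure.

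*Nrp1*, the co-receptor for VEGF-A and for class 3 semaphorins, was lower in both *Rax* iCKO libraries. It was at 13.3 and 10.8 FPKM in controls 7984 and 3911 and at 10.47 and 7.69 FPKM in *Rax* iCKO animals 7983 and 3914. The groups did not overlap, although mice 3911 and 7983 lay close to each other, and the means were 12.04 ± 1.73 and 9.08 ± 1.97 FPKM (SD, n = 2 each), a ratio of 0.754. On the log2 scale *Rax* iCKO minus control was -0.38 (standard error 0.26), with -0.31 and -0.44 within the number pairs, and it stayed below 0 whichever mouse was left out, from -0.58 without mouse 7983 to -0.18 without mouse 3914. Rescaling to TPM brought it to -0.26 and quantile normalization to -0.42. The gene is on the plus strand at chr8:128358604-128503363, and its levels stood for about 246 to 581 reads.

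*Vegfb*, a ligand of FLT1, was at 26.7 and 29.4 FPKM in controls 7984 and 3911 and at 36.0 and 23.6 FPKM in *Rax* iCKO animals 7983 and 3914. Both *Rax* iCKO values lay outside the control range, 1 above and 1 below it, which gave a log2 fold change of 0.06 (standard error 0.26) that turned to -0.23 without mouse 7983 and to -0.01 without mouse 7984. It did not follow the mouse number as *Vegfa* did, and the ratio of *Vegfa* to *Vegfb* went from 2.03 in mouse 3911 to 5.28 in mouse 7984.

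The remaining 5 genes, the angiopoietins, *Angptl4* and *Egln3*, were measured from few reads. *Angpt4*, a ligand of TIE2, was at 0.354 and 0.486 FPKM in controls 7984 and 3911, at 0.0797 FPKM in *Rax* iCKO mouse 7983, and listed at 0 in *Rax* iCKO mouse 3914. The smallest whole numbers of reads that give these values are 6, 6, 1 and 0. From the transcript length they are about 9.6, 9.6, 1.6 and 0. Both *Rax* iCKO libraries were lower, and the difference rests on these few reads.

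*Egln3*, a prolyl hydroxylase that is itself switched on by HIF, was at 0.476 and 0.391 FPKM in controls 7984 and 3911 and at 0.171 and 0.173 FPKM in *Rax* iCKO animals 7983 and 3914. These values stand for about 15 and 9 reads in the controls and 4 reads in each *Rax* iCKO library. The mean in *Rax* iCKO was 0.397 times that in control, a difference of -0.29 in log2(FPKM + 1), which understates the change of a gene at this level. With a pseudocount of 0.1 in place of 1 it was -0.97.

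*Angptl4*, a secreted inhibitor of lipoprotein lipase that HIF and PPAR factors are known to induce, was at 0.830 and 1.20 FPKM in controls 7984 and 3911 and at 0.435 and 0.819 FPKM in *Rax* iCKO animals 7983 and 3914. The groups were separated by only the small gap between 0.819 and 0.830 FPKM, and the ratio of means was 0.618. In whole-read steps the smallest numbers were 18, 19, 7 and 13 reads, in the same order, and from the transcript length they were about 32.8, 34.6, 12.8 and 23.7.

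*Angpt1* and *Angpt2*, the main activating and the context-dependent ligand of TIE2, did not separate the genotypes. *Angpt1* was at 0.572 and 0.157 FPKM in controls 7984 and 3911 and at 0.335 and 0.365 FPKM in *Rax* iCKO animals 7983 and 3914, with both *Rax* iCKO values inside the control range. From its transcript length this is about 29.5, 5.9, 12.8 and 13.8 reads in the same order. *Angpt2* was at 0.117 and 0.545 FPKM in the same controls, or 5 and 17 reads, and at 0.0315 and 0.128 FPKM in *Rax* iCKO, or 1 and 4 reads. The control mean of *Angpt2* thus rested on mouse 3911.

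Put together, 4 of the 10 genes (*Angpt4*, *Angptl4*, *Egln3* and *Nrp1*) had both *Rax* iCKO libraries below both controls, a pattern found in 14.5% of the 17865 genes, and only *Nrp1* of these had a mean of at least 1 FPKM. In the limma fit across all 12363 genes, 3 genes (0.0243%) had a Benjamini-Hochberg adjusted p under 0.05, and none of the 5 tested members (*Epas1*, *Hif1a*, *Nrp1*, *Vegfa* and *Vegfb*) was among them. At an unadjusted limma p under 0.05 the count was 354 genes (2.86%), again with 0 of the 5. Since the genotype contrast was used to choose the genes, nothing is read from these counts. Müller glial and rod marker sums were also lower in each *Rax* iCKO library than in either control, and *Rlbp1*, whose promoter drives Cre, was at 2616 and 2159 FPKM in the controls and at 1292 and 1560 FPKM in *Rax* iCKO. Gene by gene, 4 of the 12 Müller glial markers (*Rlbp1*, *Vim*, *Apoe* and *Car14*) and 7 of the 8 rod markers, all but *Nrl*, had both *Rax* iCKO libraries lower, and the other 8 Müller glial markers overlapped. Bipolar cell markers went the other way, with both *Rax* iCKO libraries higher for 4 of 8 genes and lower for 0, although their sums overlapped. The part of a different make-up of the sorted cells in the values of *Nrp1* and *Hif1a* was not tested.

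The receptors of these ligands were then examined. *Kdr*, which encodes the main VEGF-A receptor, was at 463.6 and 228.1 FPKM in controls 7984 and 3911 and at 385.1 and 241.2 FPKM in *Rax* iCKO animals 7983 and 3914, above *Vegfa* in every library by a factor of between 2.88 and 3.83. It followed the mouse numbers as *Vegfa* did, with a pair difference of 0.85, and its genotype log2 fold change was -0.09 (standard error 0.42, limma adjusted p = 0.9999), which turned to 0.04 when FPKM were rescaled to TPM and to 0.09 after quantile normalization. Leaving out 1 mouse moved the fold change of *Kdr* between -0.60 and 0.42. *Flt1* ranged from 13.2 to 25.1 FPKM, and the ratio of *Kdr* to *Flt1* stayed between 16.1 and 18.9. Both receptors are textbook endothelial genes. In these libraries the endothelial genes *Pecam1* (0.204 to 0.638 FPKM) and *Cdh5* (0 to 0.104 FPKM) were near 0, *Erg* was listed at 0 in 3 of 4 libraries, and *Tek* and *Tie1* stayed under 0.25 FPKM. The endothelial markers other than *Kdr* and *Flt1* summed to between 19.4 and 34.6 FPKM, most of it from *Ramp2*, *Egfl7* and *Esam*. *Kdr* was thus measured at a high level in libraries with little other endothelial RNA. *Flt1* lay above this sum of the other endothelial markers in mice 7983 and 7984 but below it in mice 3911 and 3914. The receptor of the angiopoietins was near 0 along with its ligands.

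**Figure D4:**
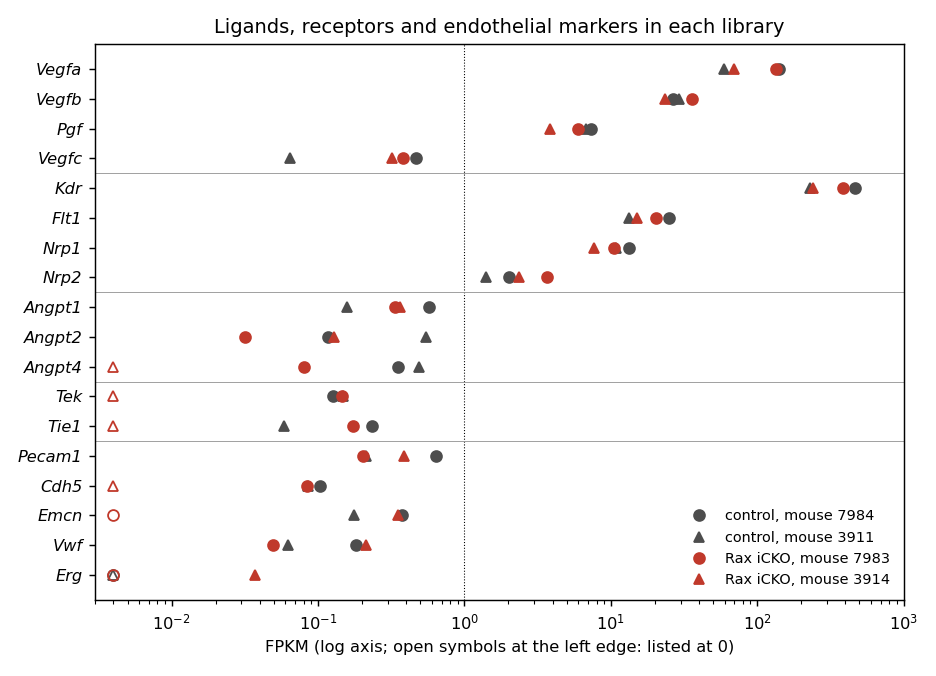
FPKM (log axis) of the VEGF ligands, their receptors, the angiopoietins, the TIE receptors and endothelial markers in each of the 4 libraries; open symbols at the left edge are values listed at 0 and the dotted line marks 1 FPKM. *Kdr* lies between 228.1 and 463.6 FPKM, while *Tek*, *Tie1*, *Pecam1*, *Cdh5*, *Emcn*, *Vwf* and *Erg* lie under 1 FPKM in all 4 libraries.

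Among the other VEGF ligands and receptors, 4 of 7 genes (*Flt1*, *Kdr*, *Nrp2* and *Pgf*) reached a mean of 1 FPKM and were tested, and 0 passed at an adjusted or an unadjusted limma p of 0.05. Their median log2 fold change was -0.08, beside -0.0044 over all genes tested, and it turned to 0.0057 after quantile normalization and to 0.056 after rescaling to TPM. *Pgf*, the placental growth factor that binds FLT1, was at 7.32 and 6.78 FPKM in controls 7984 and 3911 and 5.95 and 3.83 FPKM in *Rax* iCKO animals 7983 and 3914. *Nrp2*, the paralog of *Nrp1* and a co-receptor for VEGF-C, differed between genotypes in the opposite direction to *Nrp1*. It was at 3.65 and 2.37 FPKM in *Rax* iCKO against 2.02 and 1.396 FPKM in the same controls (log2 fold change 0.56, standard error 0.31, limma adjusted p = 0.9999). *Vegfc* lay between 0.0641 and 0.467 FPKM, and *Vegfd*, listed as *Figf*, was at 0 in all libraries.

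Of the class 3 semaphorins and plexins, the other binding partners of neuropilins, 8 of 13 genes were tested and 0 passed either threshold, with 4 higher and 4 lower. Their median log2 fold change was 0.06, but -0.086 with no filter and -0.16 over genes with a mean of at least 5 FPKM. *Gipc1*, an adaptor that binds the tail of neuropilin-1, was the most abundant with a mean of 65.8 FPKM, beside the 10.6 FPKM of *Nrp1*. *Sema3f*, a neuropilin ligand, followed with 19.4 FPKM and a log2 fold change of -0.10, which turned to 0.028 with TPM. The plexin receptor genes *Plxna3* and *Plxna2* had the largest differences, 0.45 (standard error 0.39) and 0.39 (standard error 0.30). Of the TIE receptors and other angiopoietin-like genes, 2 of 10 were tested, *Angptl2* (log2 fold change -0.54) and *Angptl6* (-0.04), and 0 passed.

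The partners and sensors of the HIF pathway were all measured. All 19 genes had a mean of at least 1 FPKM, and 13 were higher and 6 lower in *Rax* iCKO, with a median log2 fold change of 0.11 and 0 genes past either threshold. Of all 12363 tested genes, 6088 were higher and 6275 lower. *Egln1*, the main prolyl hydroxylase that acts on HIF-1α, was at 11.7 and 4.96 FPKM in controls 7984 and 3911 and at 12.4 and 5.58 FPKM in *Rax* iCKO animals 7983 and 3914. Its pair difference of 1.05 was close to that of *Vegfa*. Its genotype difference was 0.11 (standard error 0.49) and ranged from -0.43 to 0.65 when 1 mouse was left out. *Egln2*, another prolyl hydroxylase, lay between 23.4 and 33.3 FPKM and *Vhl*, which marks hydroxylated HIF for destruction, between 66.4 and 83.2 FPKM, so both were far above *Egln3* at 0.171 to 0.476 FPKM. *Arnt*, the shared partner of both HIF subunits, was between 10.51 and 14.4 FPKM, and *Hif3a*, which can act against the other subunits, between 0.978 and 2.82 FPKM. The most abundant were *Tceb2* and *Rbx1*, subunits of the ubiquitin ligase that contains VHL, with means of 495.6 and 218.9 FPKM and log2 fold changes of -0.38 and -0.21. These came to -0.13 and -0.066 with quantile normalization. Leaving out 1 mouse gave -0.76 to -0.0079 for *Tceb2* and -0.47 to 0.045 for *Rbx1*. *Crebbp*, a coactivator of HIF, had the largest difference of the list, 0.67 (standard error 0.52), with 8.39 and 2.28 FPKM in controls 7984 and 3911 and 9.59 and 6.41 FPKM in *Rax* iCKO animals 7983 and 3914. It rested on the low value of mouse 3911, without which it was -0.083.

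Of 48 hypoxia-inducible genes, 43 were tested, with 18 higher and 25 lower in *Rax* iCKO, beside 6088 higher and 6275 lower of all 12363. Their median log2 fold change was -0.02, which turned to 0.075 with quantile normalization and to 0.099 with TPM. None passed at an adjusted limma p of 0.05, and 1, the transcription repressor *Bhlhe40*, was lower at an unadjusted limma p of 0.04995 (log2 fold change -0.49, standard error 0.20, adjusted p = 0.9999), with 34.9 and 31.7 FPKM in controls 7984 and 3911 and 24.1 and 22.7 FPKM in *Rax* iCKO animals 7983 and 3914. The largest differences in either direction were those of the collagen prolyl hydroxylase gene *P4ha2* (log2 fold change 0.64, standard error 0.29) and the peptide hormone gene *Adm* (-0.58, standard error 0.37), neither past the unadjusted threshold. The most abundant were the glycolytic genes *Eno1* and *Gapdh*, with means of 4586 and 2421 FPKM and log2 fold changes of -0.50 and -0.16, of which that of *Gapdh* turned to 0.32 after quantile normalization. Both have near-identical pseudogene copies, so their levels are uncertain. *Ankrd37*, whose order of libraries was opposite to that of *Vegfa*, was at 48.2 and 63.7 FPKM in mice 7984 and 7983 and at 124.5 and 102.8 FPKM in mice 3911 and 3914. Known HIF targets thus did not share 1 order of libraries, and *Ankrd37* was picked after its values were seen.

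Of the 13 genes in the lipid pathway of *Angptl4*, 6 were tested, all 6 with a lower mean log2 level in *Rax* iCKO, where 6275 of all 12363 tested genes were lower, and a median log2 fold change of -0.18. *Acaa2* turned to 0.12 and *Cpt1a* to 0.11 after rescaling to TPM, and *Acaa2* to 0.088 after quantile normalization, so the direction of these 2 depends on the scaling. *Lmf1* came to -0.0031 with TPM. *Rxra*, at -0.24, ranged from -1.05 to 0.58 when 1 mouse was left out, so its direction depends on single mice. *Plin2*, which coats lipid droplets, was at 28.1 and 22.7 FPKM in controls 7984 and 3911 and at 15.6 and 13.8 FPKM in *Rax* iCKO animals 7983 and 3914. Its log2 fold change of -0.74 (standard error 0.22) had an unadjusted limma p of 0.0158 and an adjusted p of 0.9999. *Slc25a20*, the mitochondrial carrier of acylcarnitines, had a log2 fold change of -0.43 (standard error 0.21) and an unadjusted limma p of 0.0798. *Lpl*, whose product ANGPTL4 inhibits, lay between 0.122 and 0.476 FPKM, under *Angptl4* itself in every library, and was not tested.

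Of 20 other secreted regulators of vessels, 11 were tested, with 3 higher and 8 lower in *Rax* iCKO, beside 6088 higher and 6275 lower of all 12363. Their median log2 fold change was -0.24. *Ndp*, which encodes norrin, a Müller glial ligand needed for retinal vessels, was at 32.2 and 37.2 FPKM in controls 7984 and 3911 and at 18.6 and 24.2 FPKM in *Rax* iCKO animals 7983 and 3914. The log2 fold change of *Ndp* was -0.68 and that of *Cyr61*, a matricellular protein gene, -0.70, with unadjusted limma p-values of 0.0245 and 0.0446 and adjusted p-values of 0.9999. *Sparc*, another matricellular protein gene, was the most abundant with a mean of 1339 FPKM and a log2 fold change of -0.24 (standard error 0.35). Over the 7 lists together, 93 of 130 genes were tested, 0 passed at the adjusted threshold, and 0 were higher and 4 lower at an unadjusted limma p under 0.05, beside 156 higher and 198 lower of all 12363. Rescaling FPKM to TPM moved the median of all genes from -0.0044 to 0.11 and that of the HIF partners from 0.11 to 0.23.

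**Figure D5:**
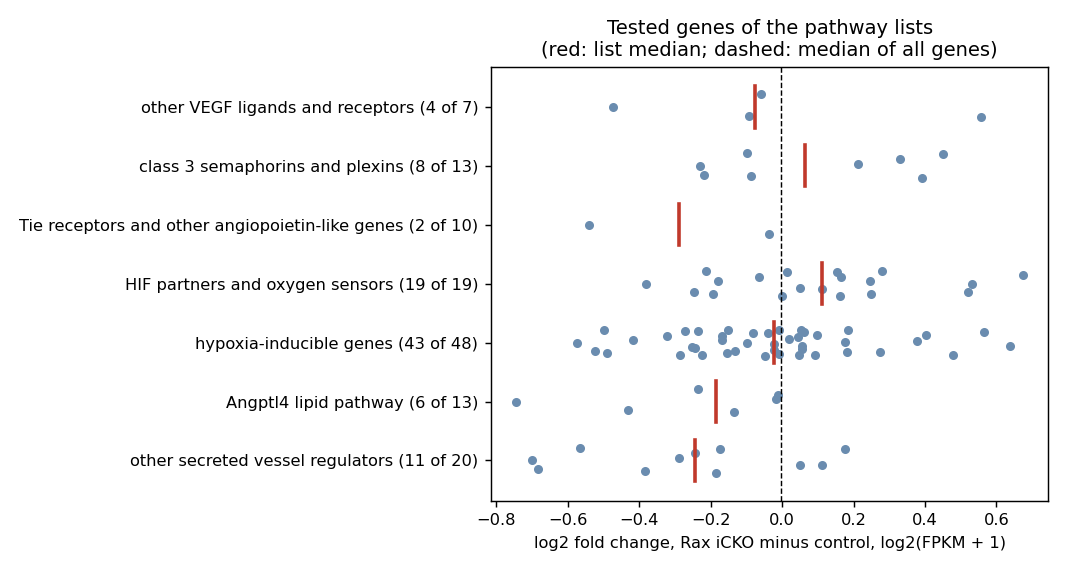
Log2 fold change of *Rax* iCKO against control for every tested gene of the 7 pathway lists (points, vertical scatter for legibility), with the list medians in red and the median of all 12363 genes as a dashed line; tested and listed numbers stand beside each name. The list medians run from -0.29 for the 2 TIE and angiopoietin-like genes to 0.11 for the 19 HIF partners and sensors, and the points of each list with more than 6 tested genes lie on both sides of 0.

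The genes whose 4 libraries were most like those of *Vegfa*, by Euclidean distance of log2(FPKM + 1) among genes with a mean of at least 1 FPKM, were *Cdk2ap1* (0.319), *Ptprs* (0.332) and *S1pr3* (0.406). The likeness is over 4 libraries.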

How the data were processed

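RNA-seq libraries of FACS-sorted mTFP-positive retinal cells from 4 mice were used as deposited. Reads in single-end mode were aligned to mm10 by the authors, who deposited FPKM per gene from Cufflinks. The submitters' processing notes name TopHat2 2.1.1, Bowtie2 2.2.8, SAMtools 0.1.18 and Cuffdiff 2.2.1, whereas the methods give other versions of the first 3. The methods name TRIzol LS and the labels a spin-column kit with full-length cDNA amplification for the RNA, so this is not settled. Use of the strand in counting is not given in the sources used here, so overlapping genes on opposite strands cannot be told apart.

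FPKM were used without rescaling. Genotype groups, taken from the labels, were compared by limma 3.58.1 (R 4.3.3, lmFit and eBayes with a variance trend) on log2(FPKM + 1) for the 12363 genes with a mean of at least 1 FPKM. P-values were adjusted by the method of Benjamini and Hochberg. This scale understates fold changes of low genes. The files hold no counts, and no count test was run. Depth was estimated from low genes: 90.5% of 2310 moved in whole-read steps (within 0.05 reads, at most 20 reads), and 347 genes of known transcript length, less 200 bases, set the scale, so read numbers are estimates and limit precision below 1 FPKM. Positions and lengths came from GENCODE on GRCm38. The code of the fit was also run on simulated data with independent noise, larger shifts than those described here and no shared difference between number pairs. That run does not show what the fit can detect in these libraries.

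The 10 genes, the lists and the tests were chosen with earlier results of these data known. Named genes are the 10, *Rax*, the 2 most abundant and the 2 most changed tested genes of each pathway list, and the 3 nearest to *Vegfa*. The others named were chosen after their values were seen. Further markers summed to 3.2 to 9.6 FPKM for pigment epithelium and 33.1 to 57.1 for astrocytes. The labels name no litters or batches. Alternatives were pseudocount 0.1, no filter, a mean of at least 5 FPKM, quantile normalization, equal medians, TPM, no variance trend, a block by mouse number pair, and leaving out each mouse.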

Additional observations from a re-analysis of the deposited data

How the results depend on the processing

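The log2 fold changes of the 10 genes kept their direction with all 4 libraries under every alternative run, except *Angpt1*, which lies near 0 and was -0.0059 with equal medians. The 5 genes under 1 FPKM have no value with quantile normalization or with at least 5 FPKM. A pseudocount of 0.1 moved the low genes to -1.11 for *Angpt2*, -1.94 for *Angpt4*, -0.65 for *Angptl4* and -0.97 for *Egln3*. Leaving out 1 mouse gave ranges of -0.54 to 0.68 for *Vegfa*, -0.23 to 0.35 for *Vegfb*, -0.53 to 0.69 for *Epas1*, -0.22 to 0.22 for *Angpt1*, -0.52 to -0.050 for *Angpt2*, -0.52 to -0.38 for *Angpt4*, -0.48 to -0.14 for *Angptl4*, -0.58 to -0.18 for *Nrp1*, 0.12 to 0.47 for *Hif1a* and -0.33 to -0.25 for *Egln3*.

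Counts of called genes depended on the fit. At an adjusted p under 0.05, 1 gene was higher and 2 lower. The higher count was 0 with no filter, with at least 5 FPKM and with TPM, 2 with quantile normalization, 3 with equal medians, and 8 to 14 without 1 mouse. The lower count was 0 with no filter, with at least 5 FPKM and with TPM, and 5 to 12 without 1 mouse. At an unadjusted p, 156 were higher and 198 lower, against 254 and 370 with no filter, 337 and 72 with TPM, and 56 to 345 and 74 to 311 without 1 mouse. Pathway genes numbered 0 higher and 4 lower, against 1 higher with no filter, 2 lower with equal medians, 1 lower with TPM, and 0 to 3 higher and 1 to 6 lower without 1 mouse. With a replicate block by mouse number pair, 24 genes were higher and 47 lower at the adjusted threshold and 842 and 1096 at the unadjusted one, 5 and 12 of them pathway genes, and 0 pathway genes passed the adjusted threshold. The labels do not pair these numbers. The cause of these shifts was not tested.

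The median of the TIE and angiopoietin-like list was -0.058 with no filter and -0.037 with at least 5 FPKM, where other numbers of genes entered. That of the HIF partners was 0.080 with at least 5 FPKM, 0.081 with quantile normalization and 0.23 with TPM, and that of the hypoxia-inducible genes 0.075 and 0.099 under the last 2, so its sign changed. The sign also changed for other VEGF genes (0.0057 with quantile normalization, 0.056 with TPM) and for semaphorins and plexins (-0.086 with no filter, -0.16 with at least 5 FPKM). Leaving out 1 mouse gave medians of 0.0026 to 0.16 for HIF partners, -0.10 to 0.040 for hypoxia-inducible genes, -0.034 to 0.43 for semaphorins and plexins, -0.50 to 0.069 for the *Angptl4* lipid pathway, -0.58 to -0.014 for secreted vessel regulators, -0.51 to 0.40 for other VEGF genes and -0.42 to -0.15 for the TIE list. Depth limits every gene under 1 FPKM, and 2 mice a group limit all of them.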
